A study of Mus musculus with 9 samples.

Results

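The 10 genes described here belong to the Notch pathway: the receptors Notch1, Notch2 and Notch3, the ligands Dll1, Jag1 and Jag2, the target genes Hes1, Hey1 and Heyl, and the DNA-binding mediator Rbpj. They were chosen by name, with earlier results of these data known. Every MyoD1 peak that overlapped a gene body or the 10 kb on each side of it was taken. This gave 206 peaks over 6 libraries and 81 merged regions of 58309 in the genome. Peaks came from CUT and RUN, in which an antibody brings a nuclease to a chromatin protein and the freed DNA is sequenced, done with anti-Flag in C2C12, a mouse myoblast line. All 6 libraries came from cells with MyoD1 tagged with 3xF-Halo at its own locus, a line grown from a single cell, and with an added dox-inducible 3xF-Halo-MyoD1. Cultures were moved to differentiation medium without dox (no dox, 3 libraries) or with dox for 6 h (+dox, 3 libraries), and the study notes that induction did not reach every nucleus. The 3 wild-type libraries, which carry no tag, were not analysed here, so no value below has a background from untagged cells beside it. The comparison asks whether binding at these genes differed between endogenous and raised MyoD1.

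Notch signaling passes between neighboring cells. A ligand of the Delta or Jagged family on one cell engages a receptor on the next, the receptor is cut, and its intracellular part enters the nucleus and joins Rbpj on DNA, where Hes and Hey genes, which encode repressors, are activated. In muscle the pathway is known for keeping progenitors undifferentiated, opposite to MyoD1, a basic helix-loop-helix factor that binds E-boxes, of which CAGCTG is preferred.

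The library +dox replicate 3 stood apart from the rest. It held 53661 peaks, against 9389 to 13877 in the other 5, at a depth of 8030000 alignments against 2868000 to 4667000. Of the 81 regions at the Notch loci, 41 (50.6%) were called in that library alone, as were 59.2% of all merged regions. Heights are given as a percentile of maximum signal within each library's own list, and this measure ran high in +dox replicate 3. Over protein-coding genes with a peak in all 6 libraries, the median best percentile was 92.7 in that library and 70.2 to 78.7 in the others. Counts are therefore also given with that library left out or with every list cut to its strongest 9389 peaks.

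Selected sites at these loci are shown first, as 200 bases around the maximum of the region, on the plus strand of mm10, with CAGCTG in capitals. They are the highest sites at Hes1 and Heyl, the Notch1 and Notch3 sites where the groups did not overlap, the single region called in all +dox and none of the no dox libraries, and the highest site of the ligand loci.

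Hes1, 208 bp upstream, chr16:30064076-30064275: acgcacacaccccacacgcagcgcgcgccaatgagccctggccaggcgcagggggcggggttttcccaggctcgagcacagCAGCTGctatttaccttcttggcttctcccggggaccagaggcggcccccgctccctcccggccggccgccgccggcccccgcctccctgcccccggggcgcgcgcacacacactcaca
Heyl, 7380 bp upstream, chr4:123226076-123226275: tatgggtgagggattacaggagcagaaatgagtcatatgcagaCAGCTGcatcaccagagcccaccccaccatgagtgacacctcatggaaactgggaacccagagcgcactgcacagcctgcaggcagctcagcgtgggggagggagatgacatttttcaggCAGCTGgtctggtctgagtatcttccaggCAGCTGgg
Heyl, 5080 bp upstream, chr4:123228376-123228575: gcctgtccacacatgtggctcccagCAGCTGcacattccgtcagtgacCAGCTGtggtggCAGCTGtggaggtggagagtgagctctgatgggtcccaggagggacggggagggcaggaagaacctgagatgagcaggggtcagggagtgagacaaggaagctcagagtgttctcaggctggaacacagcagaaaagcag
Notch3, intron, chr17:32164276-32164475: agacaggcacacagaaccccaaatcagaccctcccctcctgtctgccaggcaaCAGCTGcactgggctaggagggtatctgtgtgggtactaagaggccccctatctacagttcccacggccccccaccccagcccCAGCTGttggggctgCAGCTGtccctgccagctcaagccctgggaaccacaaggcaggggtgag
Notch1, intron, chr2:26502276-26502475: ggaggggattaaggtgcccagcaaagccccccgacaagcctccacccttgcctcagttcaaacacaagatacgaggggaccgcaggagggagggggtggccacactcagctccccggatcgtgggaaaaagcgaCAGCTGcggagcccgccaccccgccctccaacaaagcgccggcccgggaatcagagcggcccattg
Notch1, intron, +dox only, chr2:26507526-26507725: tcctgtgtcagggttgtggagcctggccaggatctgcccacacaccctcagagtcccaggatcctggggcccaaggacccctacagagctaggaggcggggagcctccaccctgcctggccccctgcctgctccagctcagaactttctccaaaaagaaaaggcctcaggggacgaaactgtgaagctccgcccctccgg
Jag2 locus, Nudt14 intron, chr12:112938026-112938225: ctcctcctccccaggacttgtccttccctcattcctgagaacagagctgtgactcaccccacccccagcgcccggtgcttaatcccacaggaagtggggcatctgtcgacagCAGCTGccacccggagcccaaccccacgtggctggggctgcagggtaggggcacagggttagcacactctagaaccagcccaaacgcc

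MyoD1 peaks were found at these loci with or without dox. A peak was present in all 6 libraries at 9 of 10 loci, all but Dll1, whereas this held for 24.8% of the 21938 protein-coding genes. A region shared by all 6 libraries was present at 8 of 10 loci, all but Dll1 and Hey1, against 21.7% of protein-coding genes. These shares are not adjusted for length: the loci ran from 23.4 kb at Hes1 to 211 kb at Rbpj, against a median of 37.4 kb over protein-coding genes. As the members were chosen with earlier results known, the shares are a description and not a test. In all, 12 of the 81 regions (14.8%) were called in 6 of 6 libraries, against 8.30% in the genome, and 48 were called in 1 library. The maxima of 47 regions lay in introns, 19 between genes, 8 in coding exons, 5 in UTRs and 2 in non-coding exons.

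**Figure D1:**
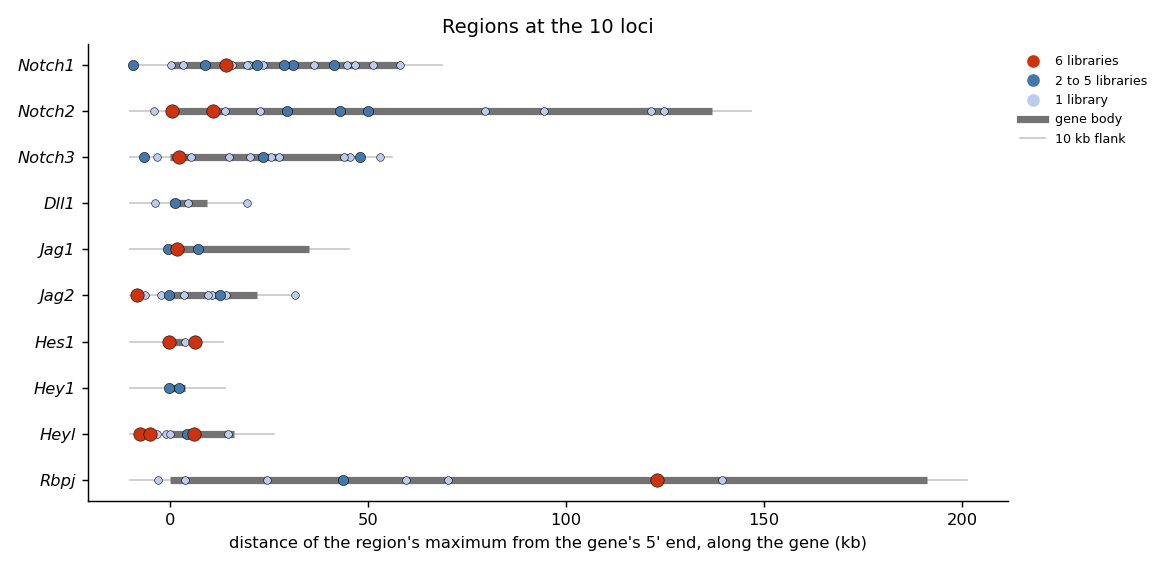
Position of the 81 regions at the 10 loci, as the distance in kb of each maximum from the gene's 5' end, with gene bodies as thick bars and flanks as thin lines. Large red points are the 12 regions called in 6 libraries, blue points those in 2 to 5 and pale points the 48 in 1 library; the Heyl and Hes1 points in red sit close to their genes, while the red point of Rbpj lies deep in the gene.

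Among the targets, Hes1 and Heyl held some of the highest peaks. Hes1 encodes a repressor and is the best known target of the pathway. Its strongest region (chr16:30062751-30067650), 4900 bp wide with its maximum 208 bp before the gene, reached percentiles of 96.9, 97.0 and 90.5 without dox and 99.1, 98.7 and 98.3 with dox. All +dox values lay above all no dox values, by 3.95 in the mean. A second Hes1 region, 6342 bp past the start and beyond the gene's 3' end, was lower, at 43.0, 72.2 and 47.9 without dox and 74.6, 42.4 and 88.9 with dox, and its groups overlapped.

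Heyl, a Hes-related repressor, had 3 regions in 6 of 6 libraries. The one 5080 bp upstream (chr4:123227251-123229800) had percentiles of 97.0, 97.4 and 93.5 without dox and 93.7, 97.7 and 98.8 with dox. The one 7380 bp upstream (chr4:123225601-123227000) had 92.7, 94.0 and 91.2 without dox and 94.2, 94.0 and 99.0 with dox. Its +dox values lay above the no dox values, though the nearest of them differ by less than the rounding shown, while the site closer to the gene overlapped between groups. The last, 6120 bp into the gene and 81 bp from an internal start site, was far weaker, at 21.4, 44.9 and 14.9 without dox and 49.3, 42.4 and 88.4 with dox. Hey1, the remaining target, was weak by comparison: its promoter region, 245 bp before the gene, was called in 5 libraries, at 43.0 and 37.5 without dox and 49.3, 37.4 and 75.3 with dox, and not in no dox replicate 3.

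Among the receptors, Notch3 had the highest site in 6 of 6 libraries. That region (chr17:32163251-32165850) lies in an intron 2476 bp from the start, with percentiles of 78.9, 88.8 and 89.1 without dox and 89.8, 92.6 and 96.9 with dox, so the groups did not overlap. At Notch1 the groups did not overlap either. Its region 14287 bp into the gene (chr2:26501551-26504700), 1446 bp from an internal start site, had 57.7, 51.0 and 66.0 without dox and 82.7, 75.4 and 92.5 with dox. A further Notch1 intronic region, 21987 bp into the gene, was called in 5 libraries, at 70.2 and 74.2 without dox and 90.6, 86.2 and 92.7 with dox. Another, 9037 bp into the gene (chr2:26507401-26508350), was called in every +dox library and in 0 no dox libraries, the single such region, at 35.5, 65.7 and 83.1.

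Notch2 did not separate the groups. Its region 549 bp inside the start had percentiles of 48.5, 51.0 and 61.2 without dox and 55.8, 42.4 and 88.9 with dox. Its region 10999 bp inside had 43.0, 89.3 and 89.1 without dox and 60.8, 71.1 and 96.8 with dox. In both, libraries of one group spread over the values of the other. The region of highest mean at Notch2 was called in +dox replicate 3 alone, at 89.3.

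The ligand loci ranged from Dll1, which lacked a peak in some libraries, to Jag2, among the loci with the highest percentiles. Jag1 had a region 1818 bp into the gene (chr2:137113701-137115950) at 64.6, 72.2 and 66.0 without dox and 63.1, 79.8 and 90.8 with dox, with overlapping groups. The strongest region of the Jag2 locus (chr12:112937351-112939400) reached 96.0, 97.5 and 89.1 without dox and 98.0, 96.2 and 98.9 with dox. It lies 8350 bp upstream of Jag2, inside an intron of Nudt14 and 878 bp from a Nudt14 start site, so it is nearer to Nudt14 than to Jag2. The region at the Jag2 start itself, 125 bp before the gene, was called in 5 libraries and was lower, at 6.80 and 51.0 without dox and 49.3, 57.6 and 68.0 with dox. Dll1 was the only locus without a peak in every library. Its region near the start was called in 4 libraries, at 29.3 and 10.4 without dox and 12.5 and 31.8 with dox. The highest Dll1 region, at 79.9, was called in +dox replicate 3 alone.

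Rbpj, the partner through which the cut receptor acts on DNA, had 1 region in 6 of 6 libraries. It lies 123024 bp into the gene (chr5:53588401-53591150), 1038 bp from an internal Rbpj start site, with percentiles of 76.0, 93.8 and 76.1 without dox and 91.7, 88.7 and 94.8 with dox. No dox replicate 2 lay within the +dox range, so the groups overlapped.

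**Figure D2:**
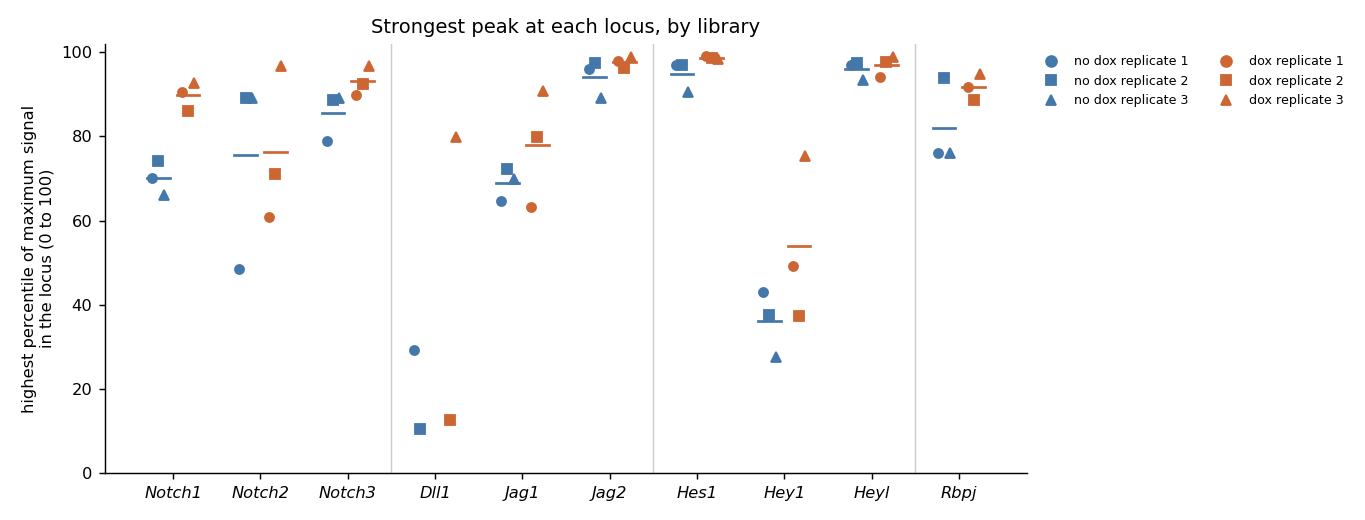
Highest percentile of maximum signal (0 to 100) at each locus, a point per library, with blue for no dox, orange for +dox, shapes for replicate numbers and bars for means where all 3 libraries had a peak. The +dox points lie above all no dox points at Notch1, Notch3 and Hes1, and Hes1, Heyl and Jag2 stay near the top in every library.

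Taking the strongest peak of each locus, the +dox libraries were all above the no dox libraries at Notch1, Notch3 and Hes1. The Notch1 mean was 70.1 ± 4.09 without dox and 89.8 ± 3.36 with dox (SD, n = 3 each). The Notch3 means were 85.6 ± 5.79 and 93.1 ± 3.55, and the Hes1 means 94.8 ± 3.73 and 98.7 ± 0.381, in the same order. Each of these had an exact two-sided permutation p = 0.1, the smallest that 3 against 3 allows, and an adjusted p = 0.364 over 5430 genes. The 3 loci are 33.3% of the 9 with a peak in every library, and 27.5% of the 5430 protein-coding genes separated in the same direction, with 0.0184% in the other, so the share at the Notch loci was near that of the genome. The median difference over the 9 loci was 7.52 percentile points, against 8.53 for all 5430 genes. The same held for the 12 shared regions: 4 (33.3%) had all +dox percentiles above all no dox percentiles, against 23.7% of 4838 regions in the genome, and 0 had them below, against 0.0413% (exact permutation p = 0.1 for each of the 4, adjusted p = 0.421).

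These separations moved with the length of the lists. With every list cut to its strongest 9389 peaks, 0 of 11 shared regions and 0 of 8 loci had all +dox values above all no dox values, and in the genome the share of regions was 2.13% in place of 23.7%. The share of genome regions with all +dox values below all no dox values was then 6.15% of 3660, in place of 0.0413%, and so exceeded the share above. At Notch1 the strongest peak then stood at 70.2, 61.8 and 51.4 without dox and 87.5, 80.4 and 58.4 with dox. At Hes1 it stood at 96.9, 95.5 and 86.4 without dox and 98.8, 98.2 and 90.5 with dox. At both genes each +dox library was still above the no dox library of the same number, and +dox replicate 3 was inside the no dox range. At Notch3 it stood at 78.9, 83.4 and 84.4 without dox and 86.4, 89.5 and 82.1 with dox, so that +dox replicate 3 was below no dox replicate 3.

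Peak numbers differed mainly through +dox replicate 3. Notch1 held 3, 5 and 3 peaks without dox and 5, 7 and 16 with dox. Notch2 held 2, 4 and 6 without dox and 2, 4 and 12 with dox, and Notch3 held 3, 4 and 2 without dox and 1, 6 and 12 with dox. Jag2 held 2, 2 and 1 without dox and 3, 2 and 11 with dox, and Rbpj 1, 1 and 2 without dox and 2, 1 and 8 with dox. In each of these +dox replicate 3 held the most and the remaining +dox libraries lay within or near the no dox range. Jag1 (2, 2 and 3 without dox, 1, 2 and 4 with dox) and Dll1 (1, 1 and 0, then 0, 1 and 4) differed by a few peaks. The targets varied least, with 3, 4 and 3 against 4, 3 and 3 at Hes1, 2, 1 and 1 against 1, 1 and 2 at Hey1, and 3, 3 and 5 against 4, 3 and 6 at Heyl.

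**Figure D3:**
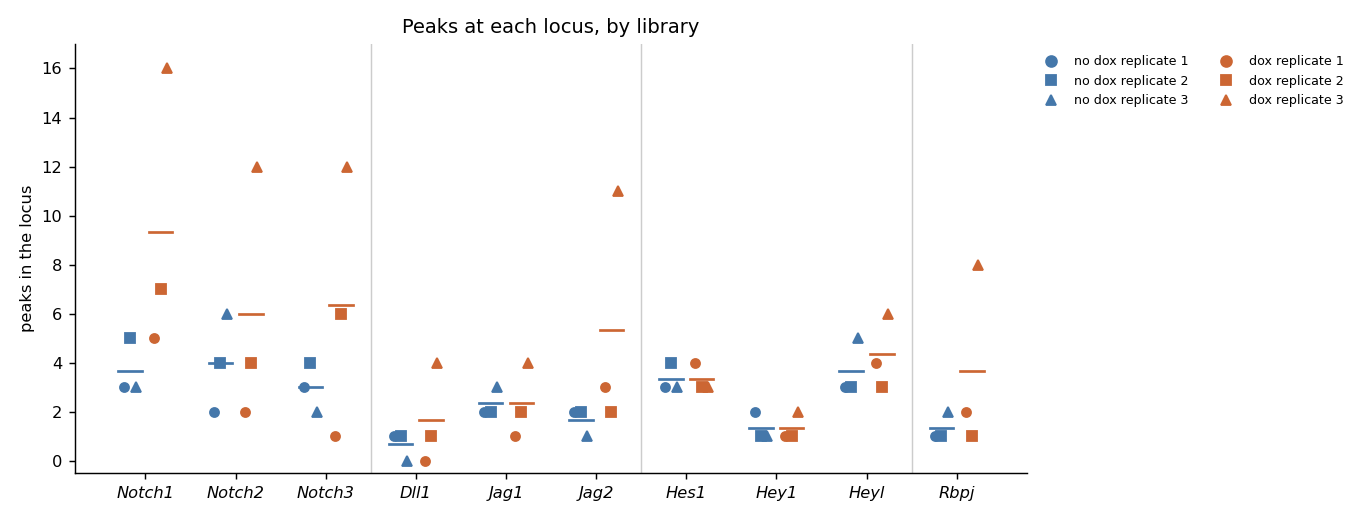
Number of peaks at each locus, a point per library, in the colors and shapes used for percentiles, with bars for group means. The triangle of +dox replicate 3 stands highest at the receptors, Jag2 and Rbpj, with 16 peaks at Notch1, while the targets show little spread.

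The 10 loci together held 22, 27 and 26 peaks without dox and 23, 30 and 78 with dox, a difference of 18.7 in the means. Without +dox replicate 3 the difference was 1.5 peaks, and 1 with every list cut to 9389 peaks, each library then holding 19 to 23. Per 10000 peaks of the list, the loci held 20.8 ± 2.31 without dox and 18.5 ± 4.05 with dox (SD, n = 3 each), so the direction turned. At 0 of 10 loci were the groups apart in peak number, against 4.29% of 15749 protein-coding genes with more peaks in all +dox libraries and 0.0127% with fewer.

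Consensus regions of each group were then compared. Core regions, found in at least 2 of 3 no dox libraries, numbered 19 over the loci, of 9560 in the genome. Expanded regions, found in at least 2 of 3 +dox libraries and overlapping no Core region, numbered 7: 3 at Notch1, 2 at Notch3, 1 at Notch2 and 1 at Jag2, with 0 at the target genes, Dll1, Jag1 and Rbpj. They are 26.9% of the 26 regions in the +dox consensus at these loci, against 38.5% of 13908 in the genome, and 4 of the 7 also had a peak in 1 no dox library. Without +dox replicate 3 the Expanded count was 2, without +dox replicate 2 it was 3, and without no dox replicate 1 or 2 it was 11. In these counts the group that lost a library needed a peak in 2 of 2. They therefore mix the loss of a library with a stricter rule. The 1 region present in every +dox library and absent from the no dox lists is 1.23% of the 81, against 1.09% of all merged regions, and no region had the reverse pattern, which 0.00858% of regions showed. A region of the first kind was present at 1 of 10 loci and at 5.24% of 15749 protein-coding genes.

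Signal in the 12 shared regions was then compared directly, as log2 maximum signal centred on each library's median over the regions called in all 6. None of the 12 passed limma's test at an adjusted p of 0.05, and 0 also had an unadjusted p under 0.05. In the genome 0 of 4838 regions passed in either direction (0% higher and 0% lower), with 124 under 0.05 unadjusted. When 200 regions were given a 4-fold change as a check, limma recovered 47%, so a lack of calls does not show equal signal. The largest difference among the 12 was at the Hes1 promoter region. There the centred log2 signal was 2.08, 1.82 and 0.88 without dox and 3.01, 2.60 and 1.33 with dox. The difference was 0.72 ± 0.50 (SE, limma adjusted p = 0.984). No dox replicates 1 and 2 lay above +dox replicate 3, so the groups overlapped. The Notch1 region 14287 bp into the gene had -0.39, -1.07 and -0.38 without dox and 0.42, -0.17 and -0.17 with dox, a difference of 0.64 with a 95% interval from -0.27 to 1.55. At the Notch2 regions the difference was -0.19 and -0.31, and at Jag1 it was 0.01, with an interval from -0.84 to 0.86. The median over the 12 was 0.28, against -0.02 over all 4838 regions. Without centring, the median of all shared regions was 0.93 higher with dox on the log2 scale, and all 12 differences were positive. Of the 12, 6 then had an unadjusted p under 0.05 but none an adjusted one. In the genome 1158 of the 4838 regions had an unadjusted p under 0.05 in that setting, and 0 an adjusted one.

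**Figure D4:**
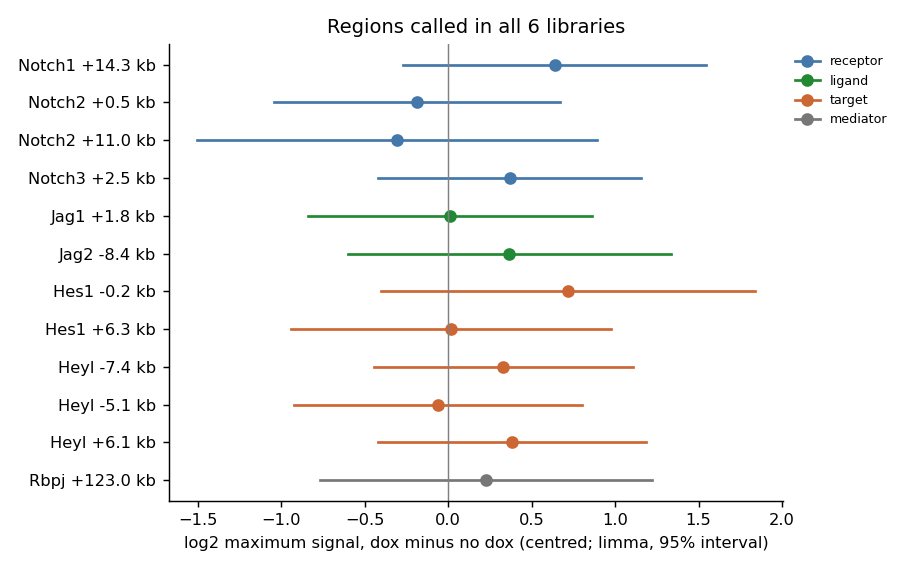
Difference in centred log2 maximum signal, +dox minus no dox, for the 12 regions called in all 6 libraries, with limma's 95% interval as a line and colors for receptors, ligands, targets and Rbpj. Every interval spans 0, from the Hes1 promoter region at 0.72 to the Notch2 region 10999 bp inside the gene at -0.31.

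Libraries with the same replicate number correlated in their deviations from group means at 0.49, 0.27 and 0.63. Replicates 1 and 2 were not told apart by this, and the pairing was taken from these same data. With the number as a block limma called 1 of 4838 regions in the genome, lower with dox, and 0 of the 12. An unadjusted p under 0.05 was then found in 627 of the 4838 and in 1 of the 12. The Hes1 promoter region then had a difference of 0.72 ± 0.24 (SE, limma adjusted p = 0.228). Its percentile was higher with dox within each of the 3 numbered pairs, as at 4 of the 12 regions (33.3%) and at 35.7% of regions in the genome.

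Receptors were set against ligands and targets by the median over 3 genes of the strongest percentile in each library, with a locus that held no peak counted as 0. The receptor median was 82.7 ± 10.8 without dox and 90.9 ± 5.38 with dox, the ligand median 68.9 ± 3.87 and 77.9 ± 13.9, and the target median 94.8 ± 3.73 and 96.8 ± 2.22 (SD, n = 3 each). By this median receptors were above ligands in 6 of 6 libraries, by 5.52 to 26.7. They were below targets in 6 of 6, by a difference between -26.7 and -1.41. The single genes did not all follow these orders, and the ligand median was the value of Jag1 in every library. Jag2 stood above or level with every receptor in each library, and Hey1 stood below every receptor. The orders of the medians also depended on the measure and the window. Ranked by total signal, receptors stood 0.995 above ligands on average, against 13.4 by maximum signal. Counting only the gene body, where the upstream Heyl sites are left out, receptors stood 34.1 above targets on average. Counting only 10 kb on each side of the start, receptors minus ligands was -11.6. Receptor loci held the most peaks, 10.7 ± 2.52 without dox against 8.33 ± 0.577 at targets and 4.67 ± 0.577 at ligands, but they are long genes. Per 100 kb, targets held 9.96 without dox and 10.8 with dox, receptors 3.54 and 7.18, ligands 3.68 and 7.37, and Rbpj 0.631 and 1.74, beside 1.01 and 2.01 over all protein-coding loci.

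The sequences at the maxima held E-boxes at a share close to that of other regions. CAGCTG, which reads the same on both strands, was within 300 bp centred on the maximum in 8 of the 12 shared regions (66.7%), against 56.2% of all regions called in 6 of 6, and in 24 of the other 69 (34.8%), against 35.7%. Its copies clustered at a few sites. The windows of 200 bases printed above for Notch3 and for both upstream Heyl sites hold 3 copies each, a feature singled out after it was seen, and 2.67% of the 4838 shared regions held 3 or more. The Notch1 region called with dox alone has no copy in its window. A second E-box, CAGGTG, was in 2 of 12 (16.7%) against 24.7%. TGGGAA, the core of the Rbpj motif, was in 7 of 12 shared regions (58.3%) against 26.1% and in 32 of all 81 (39.5%) against 27.8%. The contrast depended on the window. In 200 bp TGGGAA was in 6 of 12 (50%) against 17.3%, and over whole regions in 11 of 12 (91.7%) against 81.0%. TGACTCA, the AP-1 motif, was in 2 of 12 (16.7%) against 16.4%, and CACGTG in 1 of 12 (8.33%) against 8.04%. Motifs were searched on both strands, and a match is a description of the sequence.

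A wider list of 45 further pathway genes, also chosen with earlier results known, was read the same way. A peak in all 6 libraries was present at 18 (40%), against 24.8% of protein-coding genes, and their median best percentile was 75.7, against 75.4 over all such genes, while the 9 members had 86.8. At 5 of the 18 (27.8%) the best percentile was higher in all +dox libraries, against the 27.5% given above. Peak number was higher in all +dox libraries at 2 of 45 (4.44%), against 4.29% of 15749 protein-coding genes. No gene of the list held a region past limma's adjusted p in either direction. Of the 15 with a region called in 6 of 6, 1 held a region with an unadjusted p under 0.05, beside 124 of 4838 regions in the genome. The highest was Hes6, a Hes family member expressed in muscle precursors, whose region at the start (chr1:91412001-91415650) had percentiles of 98.8, 98.5 and 95.2 without dox and 99.5, 98.8 and 99.0 with dox. Neurl1a, a ubiquitin ligase for ligands, had a mean of 97.7, the glycosyltransferase Lfng 89.6, the coactivator Maml3 89.4 and the ubiquitin ligase Dtx4 87.0. At Lfng, which tunes which ligands a receptor answers to, the region at the start had 90.5, 87.7 and 80.3 without dox and 93.6, 92.4 and 93.0 with dox, without overlap.

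In the list 4 genes, 8.89% against the 5.24% above, held a region of the kind seen in every +dox library and in 0 no dox libraries. These regions were of modest height. At the ligand gene Dll4 the percentiles were 35.5, 6.48 and 44.8. At Psen2, a subunit of the protease that cuts the receptor, they were 40.6, 25.7 and 44.8, with the maximum 68 bp from the start site. At Ncstn, another subunit, they were 23.0, 2.25 and 54.0, and the nearest start site was that of Copa. At Poglut1, which glycosylates the receptors, they were 45.3, 2.25 and 77.0, nearest to a Timmdc1 start site.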

How the data were processed

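MyoD1 occupancy was measured by CUT and RUN in 3 no dox and 3 +dox libraries. The authors used nf-core/cutandrun on mm10, scaled coverage by CPM and called peaks per library with SEACR in relaxed mode, and the labels name SEACR and deepTools. The deposited lists give total and maximum signal per peak, both from coverage in CPM, without a spike-in. The maxima are whole multiples of a step, whose inverse gave depths of 2868000 to 8030000 alignments.

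Here peaks of all lists were merged where they overlapped by 1 bp or more, and loci came from GENCODE annotation M21. All values of a locus rest on gene body and 10 kb flanks. Percentiles and peak numbers were tested with exact two-sided permutation over 20 assignments (smallest p 0.1), and log2 maximum signal with limma 3.58.1 in R 4.3.3, with Benjamini-Hochberg adjustment over all features of the genome. Motifs and sequences were read from GRCm38. The members and lists were chosen with earlier results of these data known. Regions named are those called in 6 of 6 libraries, in 3 of 3 against 0 of 3, or highest at a locus, and from the wider list the 6 highest genes, of which 1 is not reported here, and those with a region in 3 against 0. Same-numbered libraries correlated in their deviations from group means at 0.49, 0.27 and 0.63, which met the rule for pairing (every pair over 0.1) from the data and not from a label. Replicates 1 and 2 were not told apart by it, since no dox replicate 1 correlated with +dox replicate 2 at 0.26 and no dox replicate 2 with +dox replicate 1 at 0.22. Replicates are called biological in the labels. Calculations ran in Python 3.11.15 with SciPy 1.17.1 and pandas 2.3.3. Alternatives varied scaling, list length, locus window, region merging, motif window, pairing and each library in turn.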

Additional observations from a re-analysis of the deposited data

How the results depend on the processing

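Of 139 recomputed comparison values, 115 counted as unchanged. A difference counted so if it kept its sign and moved by less than the larger group SD. For peaks at the 10 loci that SD was 29.9. A difference of 18.7 thus counted as unchanged at 1.5 without +dox replicate 3 and at 1 with lists of equal length. Over all settings of limma, 0 regions at the Notch loci passed the adjusted threshold. In the genome 1 region passed with the replicate block and 7 with replicates 1 and 2 alone, a setting chosen after seeing the data, as was replicate 3 alone. With the block, regions with an unadjusted p under 0.05 went from 124 to 627 in the genome and from 0 to 1 of the 12. The block changed no other call: 4 regions were higher with dox in every pair, and the peak difference stayed at 18.7. Taken within pairs, the median difference in best percentile over loci was 6.33, 0.309 and 9.82. The mean of these, 5.49, is another summary than the median of 7.52 given above. Regions with all +dox percentiles above no dox numbered 0 with lists of equal length and 4 to 7 with a library left out. The difference in peaks over the 10 loci was -2.26 per 10000 peaks of the list, 52 in replicate 3 alone, and 1.5 to 29 with a library left out. Expanded regions numbered 3 with lists of equal length, with 10 kb around the start, and in replicates 1 and 2 alone. With a library left out they numbered 2 to 11, while Core regions numbered 14 to 20. A group cut to 2 libraries needed a peak in 2 of 2, a stricter rule than 2 of 3. The median difference in best percentile was 4.15 to 9.16 with a library left out.

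Receptors minus ligands in best percentile was 0.995 by total signal, 44.2 over gene bodies, -11.6 around the start, and 10.7 to 14.9 with a library left out. Receptors minus targets was 34.1 over gene bodies, -33.9 around the start, and -10.5 to -5.43 with a library left out. In peaks, receptors minus ligands was -0.17 per 100 kb and -1.17 around the start, and 6.8 to 10.4 with a library left out. Receptors minus targets was -5.00 and -3.67 in those settings, and 3.2 to 9.2 with a library left out. CAGCTG was in 60.5% of regions at the loci over whole regions, against 39.5% in 300 bp.

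None of the 12 region differences had an adjusted p under 0.05 in any setting, and 157 of 176 recomputed values kept their sign. Uncentred, the Notch2 regions 549 and 10999 bp inside had 0.74 and 0.62, and the Heyl region 5.1 kb upstream 0.87. As percentiles these had 8.79, 2.44 and 0.80. By total signal Notch1 had -0.25 and Jag1 -0.37. Jag1 had -0.014 with maxima merged and -0.039 with lists of equal length, where the Hes1 region at 6.3 kb had -0.035, and that region had -0.12 in replicates 1 and 2 alone. With a library left out, Heyl at 5.1 kb ranged from -0.31 to 0.15, Jag1 from -0.19 to 0.15, and Hes1 at 6.3 kb from -0.27 to 0.30. The causes were not tested.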
